A study of Mus musculus with 41 samples.

Results

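HOX genes encode the homeodomain transcription factors that give cells their position along the body axis, and in mammals they lie side by side in 4 clusters. All protein-coding mm10 genes whose symbol is Hoxa, Hoxb, Hoxc or Hoxd followed by a number were taken, which gave 39 of 21938 protein-coding genes: 11 in the Hoxa cluster, 10 in Hoxb, 9 in Hoxc and 9 in Hoxd. A gene was counted as carrying a factor where a CUT&RUN (CNR) peak overlapped its body plus 5 kb to each side, the gene's window. With these windows the Hoxa cluster reached over chr6:52150590-52265880, Hoxb over chr11:96189316-96373256, Hoxc over chr15:102916103-103041852 and Hoxd over chr2:74663310-74770142. The windows overlap within a cluster, so 1 peak can count for several neighbouring genes and the 39 genes are not independent of each other.

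Genes at the 3′ end of a cluster (low paralogue numbers) are used early and towards the head, and genes at the 5′ end (high numbers) late and towards the tail and limb tips. Polycomb complexes keep HOX genes silent where they are not used, and trithorax-group methyltransferases, among them MLL1 (Kmt2a), keep used ones active. MLL3 (Kmt2c) and MLL4 (Kmt2d), the proteins measured here, are related enzymes that methylate histone H3 at enhancers. Skin cells are known to keep a HOX code of their place on the body.

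All cells are labelled as from male CD1 mice with the genotype K14rtTA and a TRE-driven, MYC-tagged form of Sox9, so that doxycycline (DOX) switches on SOX9 in cells in which the keratin 14 promoter is active, the basal cells of the epidermis and hair follicle. SOX9 is the HMG-box factor of hair follicle stem cells. The in vivo samples were epidermal stem cells (EpdSCs) of back skin, sorted at D0 (P21), and, for mice injected with DOX at P21 and kept on it, at W1 (P28), W2 (P35) and W6 (P63); W12 skin had been grafted onto immunocompromised hosts. The gate took CD49f-high, CD34-negative, Ly6A-high cells and left out cells with CD31, CD45, CD117 or CD140a. By the study's methods the mice carried the transgene themselves, while cultured cells of K14rtTA mice received their SOX9 form by lentivirus and were selected with puromycin. In culture, back-skin keratinocytes carried TRE-myc-Sox9 without DOX (no DOX) or with it (WT-SOX9), or with DOX a form without the transactivation domain (ΔTA-SOX9, Sox9noTA in the labels) or without the DNA-binding HMG domain (ΔHMG-SOX9, Sox9noHMG). SOX9 CNR covered all 5 in vivo points, MLL3/4 CNR covered D0, W1, W2 and the 4 culture groups, and MYC-tag CNR the 4 culture groups. Age rose with weeks of DOX, so age and DOX cannot be told apart in vivo.

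Each group had 2 samples, pooled by the authors before peaks were called, so that each group gave 1 list and there is no spread between replicates and no test between groups. Shares are therefore given with 95% Wilson intervals, which cover counting error only, and beside the same share over all genes or all peaks. The lists differed in length, from 792 (SOX9 D0) to 37072 peaks (MLL3/4 D0), with 10543 for MLL3/4 in WT-SOX9 cells against 33975 without DOX. Of 8 keratinocyte markers, 8 carried an MLL3/4 peak in every in vivo list and in 3 culture lists, and 5 in WT-SOX9 cells. Of 8 fibroblast markers, 2 did at D0 (Dpt and Pdgfra, the latter being the CD140a of the gate) and 2 without DOX. Melanocyte markers carried one in 3 of 7 at D0 and 1 of 7 without DOX, endothelial markers in 2 of 5 and 3 of 5, and immune markers in 2 of 6 in both. Among genes of the gate, Pecam1 (CD31) held 12 MLL3/4 peaks at D0, 8 at W1 and 10 at W2, Pdgfra 2 at D0 and none at W1 and W2, and Ptprc (CD45) and Kit (CD117) none in vivo. Their part in the HOX peaks was not tested.

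MLL3/4 lay over the Hoxa cluster, over parts of Hoxb and Hoxc, and over none of Hoxd. At D0, 15 of 39 HOX genes had an MLL3/4 peak, 38.5% (95% interval 24.9 to 54.1), against 49.2% of all protein-coding genes. They were 8 of 11 Hoxa, 4 of 10 Hoxb, 3 of 9 Hoxc and 0 of 9 Hoxd genes. HOX windows are short, with a median of 13.5 kb against 27.4 kb over all genes, so peaks were also counted per length. The 27 D0 peaks came to 5.98 per 100 kb of HOX window, against 2.1 in the windows of all genes. The count was 12.3 per 100 kb in Hoxa (14 peaks), 6.03 in Hoxb (7 peaks) and 5 in Hoxc (6 peaks), and 3, 1 and 2.5 in the 100 kb on each side of these clusters. By gene the HOX share lay below the background, which its interval holds, and by length the HOX count lay above it. No interval was computed for the counts per length. The windows compared were not matched for the number of gene starts per length.

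**Figure D1:**
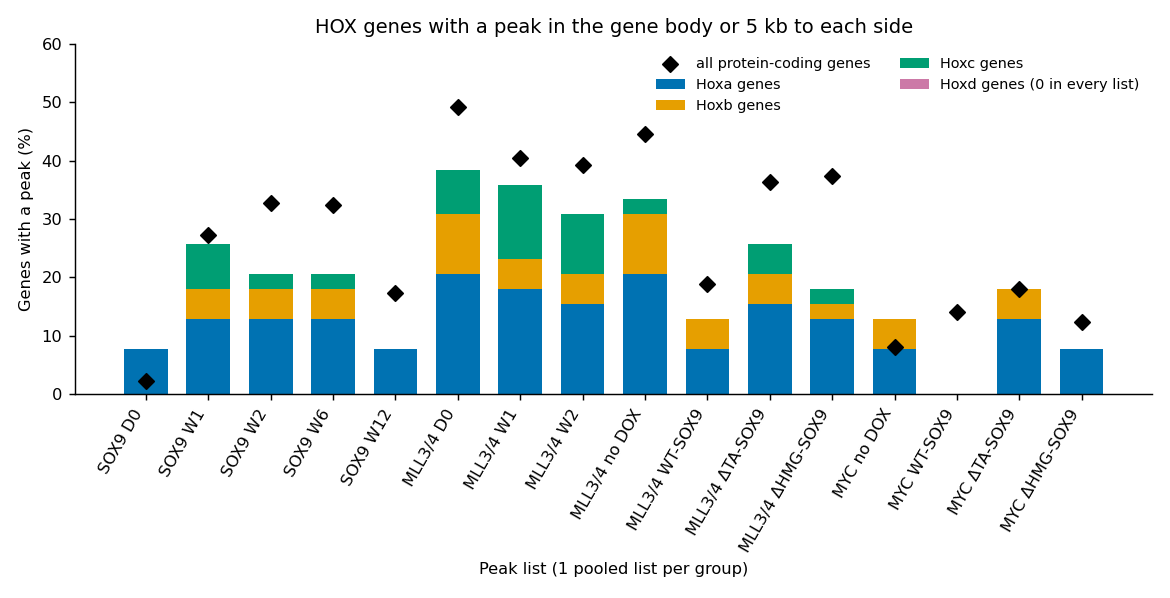
Stacked bars give the percentage of the 39 HOX genes with a peak in their window in each of the 16 pooled lists, coloured by cluster, and diamonds give the percentage of all protein-coding genes. Hoxd stood at 0 of 9 in all 16 lists, Hoxa held the largest count in every list with a HOX peak, and the bars passed the diamonds at SOX9 D0 and MYC no DOX and lay at the diamond at MYC ΔTA-SOX9.

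Genes of low paralogue number had MLL3/4 more often in the D0 list. Of the 8 genes of paralogue groups 1 to 3, 6 had an MLL3/4 peak at D0, 75% (interval 40.9 to 92.9). Of the 15 genes of groups 4 to 8 it was 8, 53.3% (30.1 to 75.2). Of the 16 genes of groups 9 to 13 it was 1, 6.25% (1.11 to 28.3). The counts for these classes were 4 of 8, 7 of 15 and 3 of 16 at W1, 4 of 8, 5 of 15 and 3 of 16 at W2, and 4 of 8, 6 of 15 and 3 of 16 in culture without DOX. In these 3 lists the interval of groups 1 to 3 (21.5 to 78.5) overlapped that of groups 9 to 13 (6.59 to 43). With WT-SOX9 groups 4 to 8 were ahead of groups 1 to 3, with 4 of 15 against 1 of 8, and with ΔTA-SOX9 it was 6 of 15 against 3 of 8. With ΔHMG-SOX9 the counts were 4 of 8, 3 of 15 and 0 of 16, and the intervals of the first (21.5 to 78.5) and the last (0 to 19.4) did not overlap. Genes of 1 group of numbers lie next to each other, so these counts rest on few separate stretches of DNA.

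Over all 16 lists 24 HOX genes had at least 1 peak. The 15 with none were Hoxa11, Hoxb5, Hoxb8, Hoxb13, Hoxc11, Hoxc12 and all 9 Hoxd genes. For Hoxd, whose genes pattern limbs and trunk, 0 peaks in 102 kb of windows allows up to 2.93 per 100 kb, above the MLL3/4 D0 background of 2.1. By length, a single list thus does not separate Hoxd from other gene windows. By gene, 0 of 9 stood against 49.2% of all genes at D0, and no limit was computed for these 9 neighbouring genes. Within 1 kb of a gene start, taken as the outermost annotated start, 7 of 39 HOX genes had an MLL3/4 peak at D0, 17.9% (interval 8.98 to 32.7), against 29% of all genes. Without DOX it was 5 of 39, 12.8% (5.6 to 26.7), against 19.1%. Both intervals hold the background. Peaks at inner transcript starts, such as the D0 peaks at those of Hoxc5 and Hoxc6, were not counted.

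**Figure D2:**
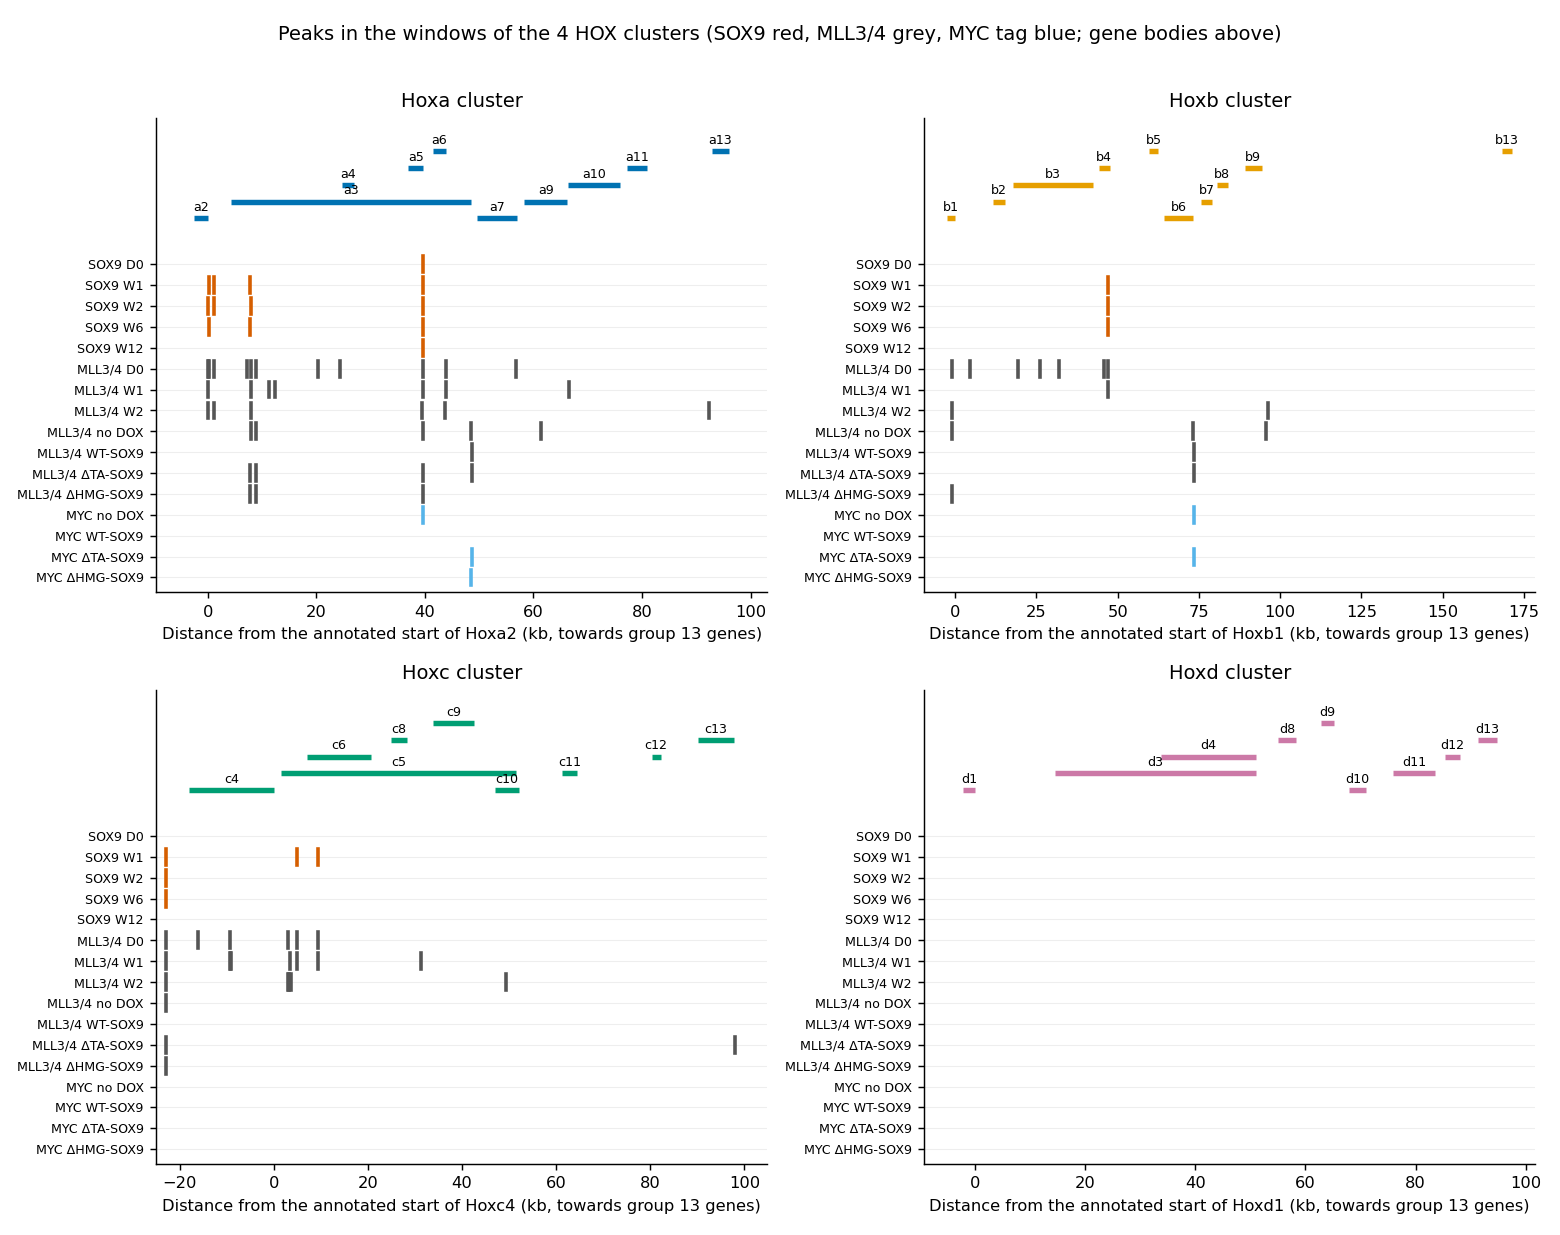
Map of the 4 clusters, with the distance in kb from the annotated start of the lowest-numbered gene drawn on the x axis, gene bodies on top and, for each of the 16 lists, the peaks nearest to the genes drawn as ticks below (SOX9 red, MLL3/4 grey, MYC tag blue). Ticks gather towards the low-numbered genes in Hoxa, are fewer in Hoxb and Hoxc, and are absent from Hoxd.

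Overlapping peaks of all lists merged into 42 sites, 22 in Hoxa, 10 in Hoxb, 10 in Hoxc and 0 in Hoxd. Of these, 25 were found in 1 list only and 17 in 2 or more. In vivo lists alone held 28, culture lists alone 7, and both systems 7. A transcription start of any gene lay within 1 kb of 29 sites, and the centre was in an exon at 20, in an intron at 16 and between genes at 6.

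The most often found site lay at the start of Hoxa5, which encodes a factor of the cervical and thoracic skeleton. It covered 840 bp at chr6:52203959-52204798, with its centre 208 bp inside the gene in an exon, and overlapped the Hoxa5 UTR. It was in 12 of 16 lists: all 5 SOX9 lists, the MLL3/4 lists D0, W1, W2, no DOX, ΔTA-SOX9 and ΔHMG-SOX9, and the MYC-tag list without DOX. The promoter is shown because this site runs into it. Its 250 bases upstream of the RefSeq start on the minus strand (GRCm38.p6, chr6:52204588-52204837) had 63.6% GC and 28 CpG dinucleotides, written in capitals, and 0 matches to the SOX words searched below.

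Hoxa5 promoter: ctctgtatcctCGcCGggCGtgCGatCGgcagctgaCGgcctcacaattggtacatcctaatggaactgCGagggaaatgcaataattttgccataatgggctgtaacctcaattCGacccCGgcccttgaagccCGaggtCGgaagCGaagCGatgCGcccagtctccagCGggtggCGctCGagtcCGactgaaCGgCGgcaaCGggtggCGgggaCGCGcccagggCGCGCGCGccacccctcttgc

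HOX promoters as a class are CpG-rich, and in the 300-base windows around HOX starts (250 bases before to 50 after) the median was 16 CpG against 11 over all genes, at a median GC of 55.3% against 55%. By cluster the median CpG count was 15 in Hoxa, 13.5 in Hoxb, 17 in Hoxc and 13 in Hoxd.

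Another site held the strongest HOX peak for MLL3/4 at D0, W1, W2 and without DOX, but not in the other 3 culture lists. It lay between genes, 4.63 kb beyond the 3′ end of Hoxc4, at chr15:103041478-103042230, and reached past the edge of the window at 103041852, so it would not be counted with the gene body alone. It was in 9 lists (SOX9 W1, W2 and W6, and MLL3/4 D0, W1, W2, no DOX, ΔTA-SOX9 and ΔHMG-SOX9). MLL3/4 total signal, the sum of coverage over the peak, is unscaled, so only its rank within a list can be compared. The peak at this site stood at the 94.3rd percentile of all D0 peaks, the 87.3rd at W1, the 91st at W2 and the 83.2nd without DOX. In ΔTA-SOX9 cells it stood at the 30.6th percentile and in ΔHMG-SOX9 cells at the 40.7th, and the WT-SOX9 list did not hold it. HOX peaks as a class were not strong: at D0 they spread from the 1.61st to the 94.3rd percentile around a median of 37.6, with 9 of 27 in the upper 50% of the list.

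A site in an exon of Hoxa3 that overlaps its UTR, a gene of the pharynx and neck, was in the same 9 lists, at chr6:52172393-52173054 (662 bp). Its MLL3/4 peak ranked at the 75.1st percentile at D0, the 74.7th at W1, the 65th at W2 and the 74th without DOX, and at the 23.2nd and the 3.18th in ΔTA-SOX9 and ΔHMG-SOX9 cells. The Hoxa5 start ranked at the 54.4th percentile at D0, the 79th at W1 and the 75.5th at W2. An intron of Hoxc4 held the second strongest D0 peak, at the 77.7th percentile, in a site at chr15:103027811-103028287, and at W1 the same site was at the 14.4th. At W2 the peak upstream of Hoxa2 (chr6:52165637-52166273), at the 64.7th percentile, was also near the top of the HOX peaks.

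**Figure D3:**
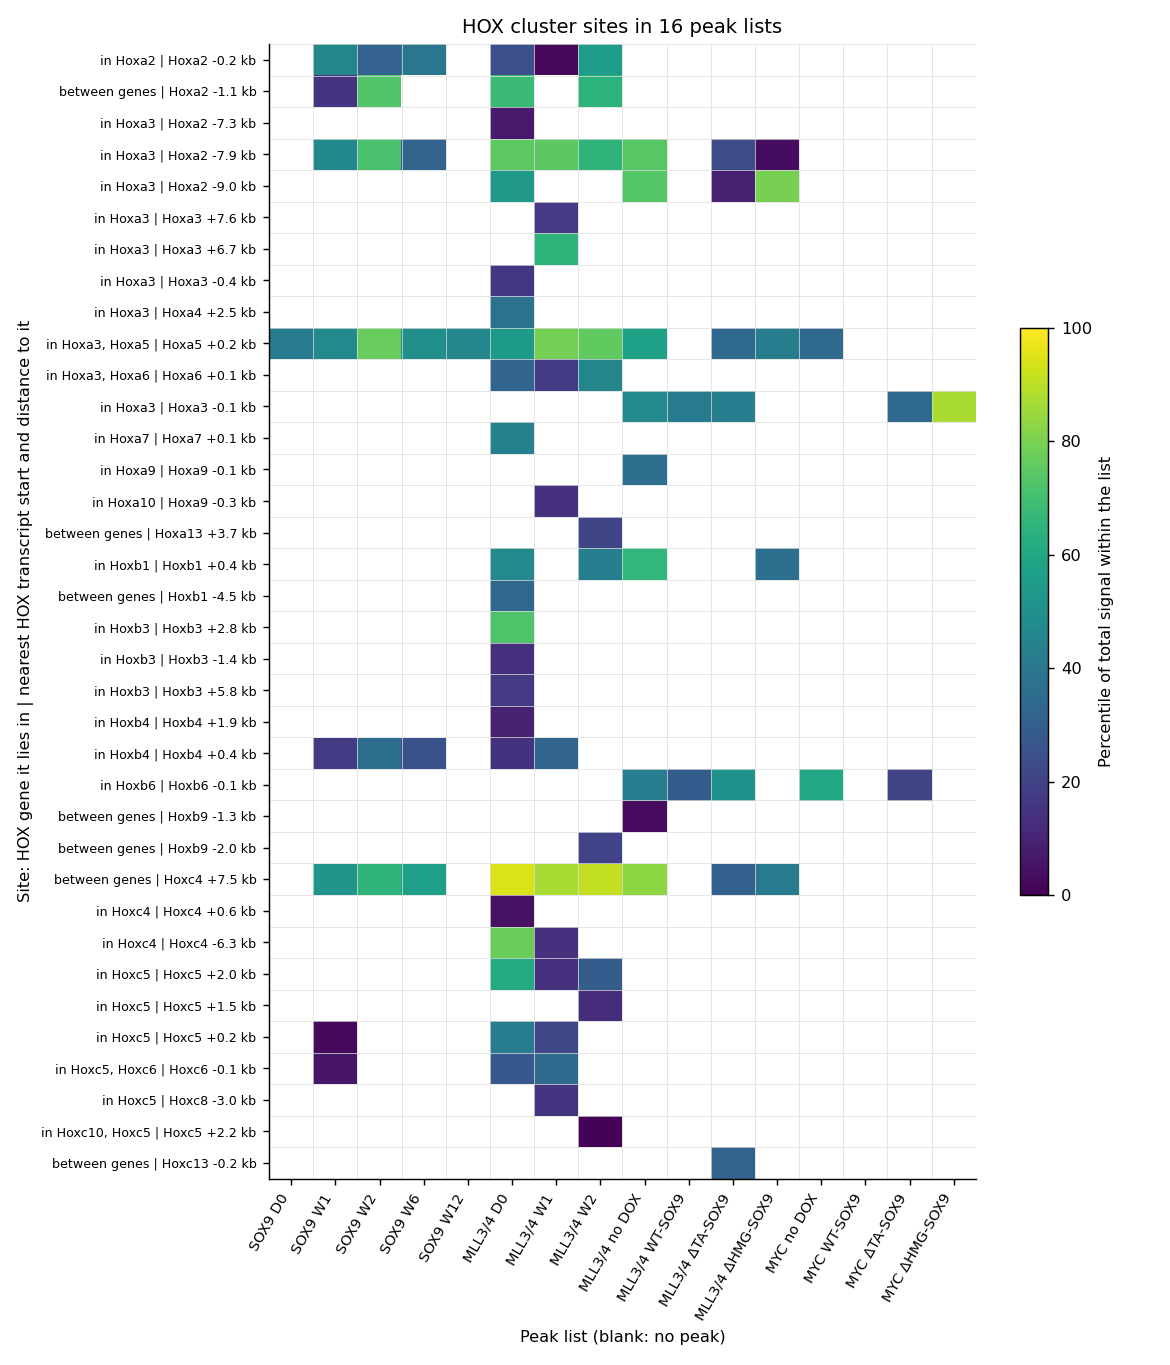
HOX sites (36 rows, named by the HOX gene they lie in and the distance in kb from the nearest HOX start) against the 16 lists (columns), coloured by the percentile of total signal within the list and blank where the list had no peak. The Hoxa5 start was filled in 12 lists, the Hoxa3 exon site (in the row -7893 bp from the Hoxa2 start) and the Hoxc4 downstream site (7459 bp from the Hoxc4 start) in 9 each.

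By gene, the HOX share with MLL3/4 fell on induction in vivo, as did the background. At W1, 14 of 39 HOX genes had a peak, 35.9% (interval 22.7 to 51.6), against 40.5% of all genes, and at W2 it was 12, 30.8% (18.6 to 46.4), against 39.3%. Per 100 kb, HOX windows held 5.98 peaks at D0, 3.54 at W1 and 3.32 at W2. All gene windows held 2.1, 1.63 and 1.57, and no interval was computed by length. From D0 to W1, 11 genes had a peak in both lists, which need not be the same peak, 4 were listed at D0 only (Hoxa4, Hoxa7, Hoxb1, Hoxb2) and 3 at W1 only (Hoxa10, Hoxc8, Hoxc9). By peak, 15 of 27 D0 peaks had no overlapping W1 peak, 55.6% (interval 37.3 to 72.4), against 48.5% of all D0 peaks. Of the W1 peaks, 4 of 16 were gained, 25% (10.2 to 49.5), against 39.7%. From D0 to W2, 17 of 27 were lost, 63% (44.2 to 78.5), against 48.7%, and 5 of 15 W2 peaks were gained, 33.3% (15.2 to 58.3), against 35.7%. All 4 intervals hold the background.

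By cluster the counts are small and were not tested against each other, and the shares over all peaks were 48.5% at W1 and 48.7% at W2. Hoxb lost 6 of its 7 D0 peaks by W1, Hoxa 8 of 14 and Hoxc 1 of 6. By W2 Hoxb had again lost 6 of 7, Hoxa 7 of 14 and Hoxc 4 of 6. The strongest D0 peaks lost at W1 were at Hoxb3 (chr11:96346281-96346901), upstream of Hoxa2 (chr6:52165740-52166240) and in Hoxa3 (chr6:52173608-52173940). At W2 the strongest lost were in the Hoxc4 intron (chr15:103028000-103028269) and the same Hoxb3 and Hoxa3 peaks. Of peaks gained at W1 the strongest were in Hoxa3 introns (chr6:52176972-52177384 and chr6:52176119-52176305) and upstream of Hoxc8 (chr15:102987486-102987688). Their maxima were 7, 6 and 6 in unscaled coverage, where the lowest of the W1 list was 5. Those gained at W2 included peaks near Hoxa13 (chr6:52257003-52257251) and upstream of Hoxb9 (chr11:96269231-96269583), each with a maximum of 5, the lowest of that list. At D0 the median maximum of HOX peaks was 6, against 7 over all peaks and a lowest of 5. The gains named thus lay at or near the lowest maximum listed, and the site upstream of Hoxa2 again held a peak at W2. Between W1 and W2, 9 of 16 W1 peaks were not found again, 56.2% (interval 33.2 to 76.9), against 37.1% of all W1 peaks, and 8 of 15 W2 peaks were new, 53.3% (30.1 to 75.2), against 32.7%. Both intervals hold the background.

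SOX9 peaks lay at 3 to 10 HOX genes, most at W1. Before DOX, 3 of 39 HOX genes had a SOX9 peak, 7.69% (interval 2.65 to 20.3), against 2.2% of all genes. This interval lies above the background, but all 3 genes (Hoxa3, Hoxa5, Hoxa6) shared 1 peak, at the Hoxa5 start. At W1 it was 10 genes, 25.6% (interval 14.6 to 41.1), against 27.3%. At W2 and W6 it was 8 genes each, 20.5% (10.8 to 35.5), against 32.8% and 32.4%. At W12 it was 3 genes again, 7.69% (2.65 to 20.3), against 17.3%. The intervals from W1 on hold the background. With lists of equal size the counts from W1 to W12 were 5, 6, 1 and 3. Per 100 kb of window the HOX count was above that in all gene windows at W1 (1.99 against 0.831), W2 (1.77 against 1.02) and W6 (1.33 against 1.06), and below it at W12 (0.221 against 0.466). These values rest on 9, 8, 6 and 1 peaks and no interval was computed for them, so they do not separate HOX windows from others. The 10 genes with SOX9 from W1 on, among them Hoxa2, Hoxa3, Hoxa5, Hoxa6, Hoxb3, Hoxb4, Hoxc4, Hoxc5 and Hoxc6, were all of paralogue groups 1 to 6, and none of the 16 genes of groups 9 to 13 had one. Within 1 kb of the outermost gene start, 4 of 39 had a SOX9 peak at W1 (among them Hoxa2, Hoxa5 and Hoxb4), 10.3% (4.06 to 23.6), against 11.7%. This leaves out the W1 peaks at inner transcript starts of Hoxc5 and Hoxc6.

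The maximum signal of a SOX9 peak is given in RPKM, with the number of fragments behind it. The Poisson intervals cover the counting of fragments only, not the spread between animals or libraries, and no time points were tested against each other. The Hoxa5 start had 2060 RPKM at D0 (67 fragments, 95% Poisson interval 1590 to 2610), 3342 at W1 (58 fragments, 2540 to 4320), 5042 at W2 (66 fragments, 3900 to 6420), 3736 at W6 (89 fragments, 3000 to 4600) and 2344 at W12 (51 fragments, 1750 to 3080). W2 was highest, with an interval that overlapped those of W1 and W6 but not those of D0 and W12. This was the sole HOX site with a SOX9 peak before DOX, and it lay a little above the authors' limit of 1800. The Hoxc4 downstream site had 3573 RPKM at W1 (62 fragments, 2740 to 4580), 4966 at W2 (65 fragments, 3830 to 6330) and 4282 at W6 (102 fragments, 3490 to 5200), with no peak listed at D0 or W12. These 3 intervals overlap each other.

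The other sites came from lower maxima. At Hoxb4, a thoracic and blood stem cell gene, the values were 2824, 4202 and 2603 RPKM at W1, W2 and W6 (chr11:96318374-96318881). The Hoxa2 start (chr6:52164741-52165351) had 2247, 3132 and 2309, and the Hoxa3 exon site 2247, 4049 and 1931. W2 was the highest at each of these 3 sites, but its interval overlapped that of W1 at all 3 and that of W6 at Hoxb4 and the Hoxa2 start. The site upstream of Hoxa2 had 1844 at W1 and 3591 at W2, and inner transcript starts of Hoxc6 and Hoxc5 2017 each at W1 only. The HOX median was 2247 at W1 against 2708 over all SOX9 peaks, 4125 against 3132 at W2, and 2498 against 2729 at W6. One fragment was worth 57.6 RPKM at W1, 76.4 at W2 and 42 at W6.

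**Figure D4:**
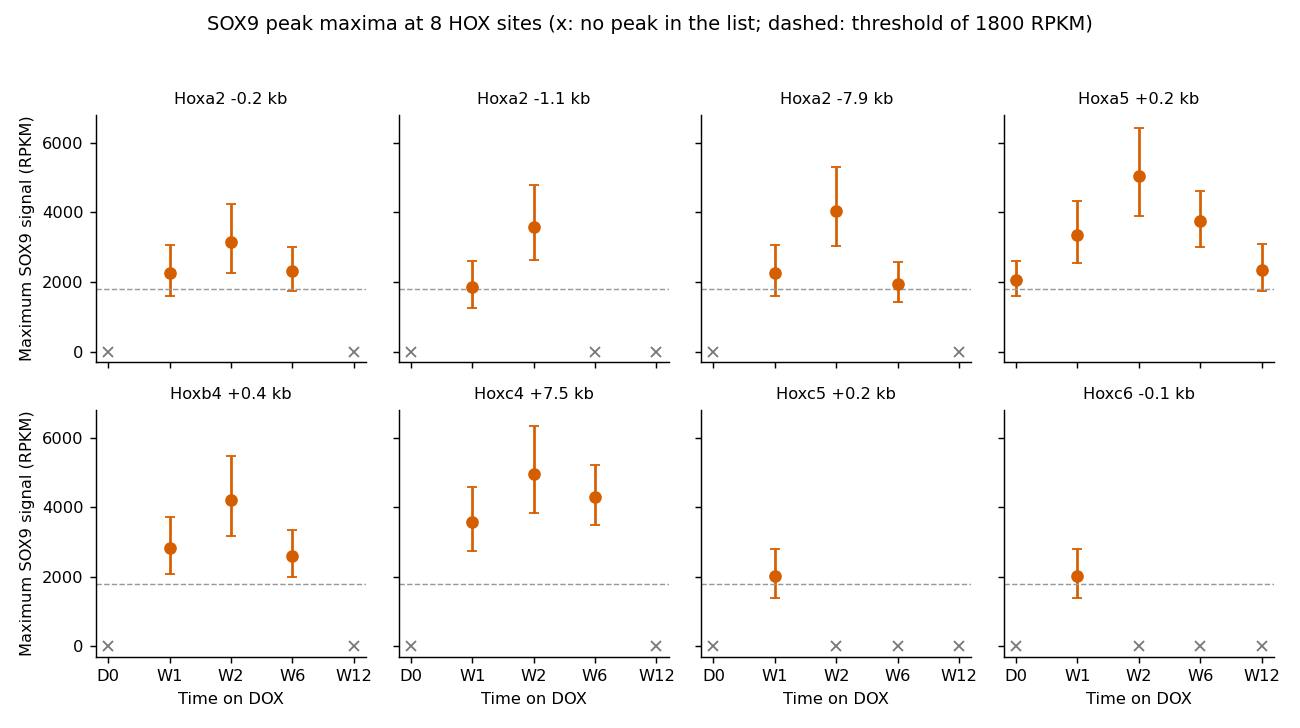
Maximum SOX9 signal in RPKM (y axis) at 8 HOX sites with SOX9 after DOX, by time (x axis), with 95% Poisson intervals of the fragment count, a cross where the list had no peak and a dashed line at 1800 RPKM. At Hoxa5 the values ran 2060, 3342, 5042, 3736 and 2344, and it was the sole site with a peak at D0 and at W12.

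Most HOX sites with SOX9 at W1 were still in the W2 and W6 lists. Of the 9 W1 HOX peaks 7 were found at W2, 77.8% (interval 45.3 to 93.7), against 77.7% of all W1 peaks, and of the 8 W2 peaks 6 were found at W6, 75% (40.9 to 92.9), against 75.1%. Both shares thus lay at the background. Of the 6 W6 peaks 1 was found in the grafted W12 skin, 16.7% (interval 3.01 to 56.4), against 39.7% of all W6 peaks. The W12 list was shorter (9745 against 20579 peaks), and with lists of equal size W6 also held 1 HOX peak.

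SOX9 in the HOX clusters lay on DNA that carried MLL3/4 before induction. Of the 9 W1 SOX9 peaks, 9 overlapped a D0 MLL3/4 peak, 100% (interval 70.1 to 100), against 67.7% over all W1 SOX9 peaks, and of the 8 W2 peaks 8 did, 100% (67.6 to 100), against 66.3%. Of the 10 HOX sites with SOX9 from W1 on, all 10 had MLL3/4 at D0 in vivo and 5 had it in culture without DOX. The lower bound for W1 lies above the background and that for W2 too, but the interval treats peaks as independent and covers counting error only. At W1, 8 of 16 HOX MLL3/4 peaks had SOX9, 50% (28 to 72), against 45.3%.

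Sorted by fate, the D0 MLL3/4 peaks kept at W1 carried SOX9 in 9 of 12 cases, against 55% over all kept peaks, those lost in 1 of 15, against 7.58%, and those gained in 0 of 4, against 30.5%. For W2 the counts were 7 of 10 kept, against 58.3%, 2 of 17 lost, against 9.06%, and 0 of 5 gained, against 38.5%. Kept peaks with SOX9 included the Hoxc4 downstream site, the Hoxa3 exon site and the Hoxa5 start. The kept and lost shares followed the pattern of all peaks, while no gained HOX peak had SOX9 in counts of 4 and 5.

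**Figure D5:**
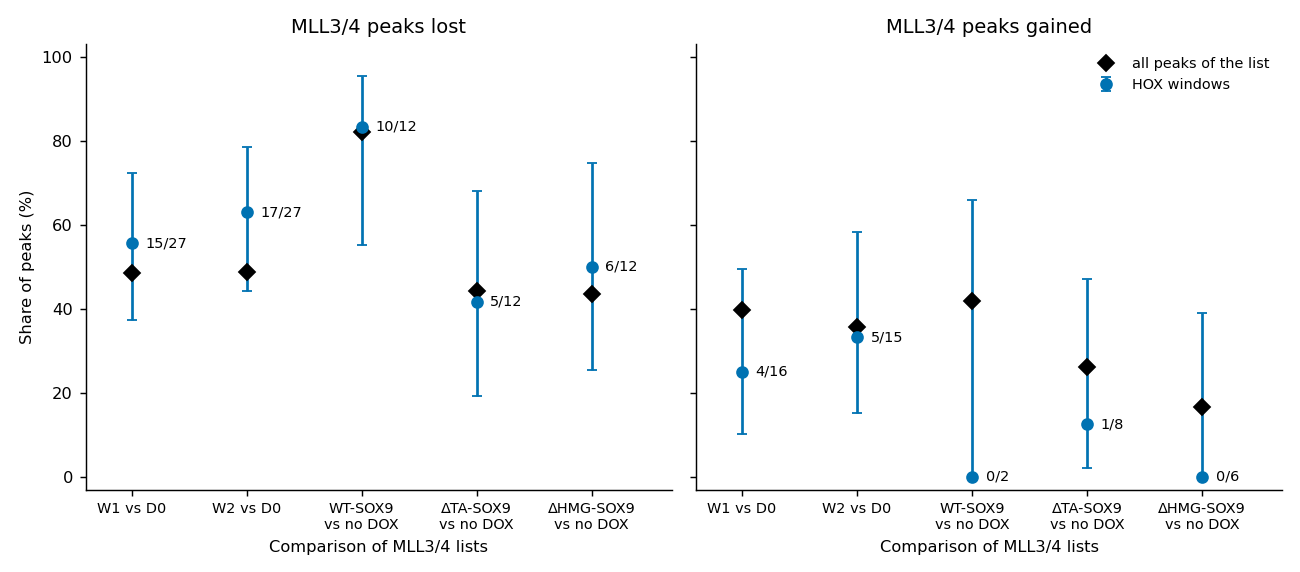
Percentage of HOX cluster MLL3/4 peaks lost (left) and gained (right) in each of 5 comparisons, as circles with 95% Wilson intervals and counts, beside the percentage over all peaks of the list (diamonds). All 10 HOX intervals hold the value over all peaks.

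The bases under the SOX9 maxima were searched on both strands for the SOX word CCATTGT and for its variants with other bases, which are CCTTTGT and also GCATTGT and lastly GCTTTGT, within 50 bp to each side of the maximum. No HOX maximum held a match: 0 of 9 at W1 (which allows up to 33.3%) against 18.4% of all W1 peaks, 0 of 8 at W2 (up to 37.5%) against 15.5%, and 0 of 6 at W6 (up to 50%) against 18.8%. The limits lie above the backgrounds, so these counts do not separate the HOX maxima from all maxima. The TTGT core was present in 6 of 9, 6 of 8 and 5 of 6, against 70.8%, 63.6% and 69.4%. Within 150 bp a full word was found at 4 of 9, 3 of 8 and 3 of 6, against 31.7%, 28.6% and 32.5%. The AP1 word TGAGTCA, which reads TGACTCA on the other strand, was present at 1 maximum in each list, against 16.2% at W1, 15.7% at W2 and 23.5% at W6. This maximum was the Hoxc4 downstream site in every case. In the windows around HOX starts, 5 of 39 (12.8%) held a SOX word, against 14.7% of all protein-coding starts.

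The 101 bases around 3 W1 maxima show this difference between sites. They are on the plus strand of mm10, with TTGT (or ACAA, its complement) and AP1 words in capitals.

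Hoxc4 downstream, chr15:103041741-103041841: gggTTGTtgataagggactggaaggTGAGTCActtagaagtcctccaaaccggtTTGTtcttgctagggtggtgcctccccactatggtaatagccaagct

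Hoxa2 upstream, chr6:52165979-52166079: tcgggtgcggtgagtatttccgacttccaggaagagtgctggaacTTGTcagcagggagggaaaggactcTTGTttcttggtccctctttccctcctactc

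Hoxa2 start, chr6:52164856-52164956: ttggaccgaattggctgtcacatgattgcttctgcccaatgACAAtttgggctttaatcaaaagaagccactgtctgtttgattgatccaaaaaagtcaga

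Of the 3, the Hoxc4 site alone carried the AP1 word, and each held at least 1 TTGT core. A match is a description of the bases and does not show what is bound there.

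In culture without DOX, 13 of 39 HOX genes had an MLL3/4 peak, 33.3% (interval 20.6 to 49), against 44.5%: 8 in Hoxa, 4 in Hoxb, 1 in Hoxc and 0 in Hoxd. The strongest were the Hoxc4 downstream site and 2 Hoxa3 sites, the exon site and its neighbour at chr6:52173608-52174001, at the 74th and the 73.7th percentile. With WT-SOX9 the count was 5 genes, 12.8% (5.6 to 26.7), against 18.8%, in a list of 10543 peaks. The 12 HOX peaks without DOX became 2, and 10 of 12 were lost, 83.3% (55.2 to 95.3), against 82% of all peaks. The strongest lost were the same 3 sites. Of the 2 WT-SOX9 peaks 0 were gained (interval 0 to 65.8), against 41.8%. HOX loss in WT-SOX9 cells thus lay near the loss over all peaks. The descriptions of both samples of that MLL3/4 group name replicate 2, though their titles give each its own replicate number. Which replicates stand behind the list is therefore unsure. The length of the lists bears on the gene counts: with the 4 culture lists at equal size, 2 HOX genes had MLL3/4 without DOX, 5 with WT-SOX9, 0 with ΔTA-SOX9 and 1 with ΔHMG-SOX9. The drop from 13 to 5 genes thus turned into a rise from 2 to 5, while 3 of 3 no-DOX peaks were lost and 2 of 2 WT-SOX9 peaks gained.

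The 2 HOX peaks left with WT-SOX9 were not the strong ones. One lay at the Hoxb6 start (chr11:96292285-96292555, in an intron of the antisense RNA Hoxb5os), at the 29.5th percentile of the WT-SOX9 list. The other lay between Hoxa6 and Hoxa7 at the distal annotated start of Hoxa3, in an exon of Hoxaas3 (chr6:52213330-52213593), at the 41.6th percentile. Both were found in culture lists alone, and both were also in the no-DOX and ΔTA-SOX9 MLL3/4 lists. Hoxb6 and Hoxa7 specify trunk segments, and Hoxb6 carried no MLL3/4 in vivo at D0.

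With ΔTA-SOX9, 10 HOX genes had an MLL3/4 peak, 25.6% (interval 14.6 to 41.1), against 36.4%. Of the 12 no-DOX peaks 5 were lost, 41.7% (interval 19.3 to 68), against 44.3%, and 1 of 8 was gained, 12.5% (2.24 to 47.1), against 26.1%, at Hoxc13, a hair shaft regulator (chr15:102920760-102920990). In the upper 50% of both lists by total signal, 5 of 5 no-DOX peaks were lost with ΔTA-SOX9 and 4 of 5 with ΔHMG-SOX9. Lost here includes peaks that only fell to the lower 50% of the later list. The Hoxc4 downstream, Hoxa3 exon and Hoxa5 start peaks were still in both full mutant lists. The share over all peaks was not computed at this setting. In the full lists, peaks at Hoxb1 (chr11:96366493-96366843) and at a transcript start of Hoxa9 (chr6:52226168-52226435) were among the strongest lost with ΔTA-SOX9. The strongest peaks of the ΔTA-SOX9 list were the Hoxb6 start at the 51.5th percentile, the Hoxa6 to Hoxa7 site at the 42.8th and the Hoxa5 start at the 34.2nd. With ΔHMG-SOX9, 7 genes had one, 17.9% (8.98 to 32.7), below the 37.4% of all genes by its interval, while per 100 kb of window the HOX count of 1.33 lay near the 1.32 of all gene windows. Of the 12 no-DOX peaks 6 were lost, 50% (25.4 to 74.6), against 43.5%, and 0 of 6 were gained (0 to 39), against 16.7%. Its strongest peaks were the Hoxa3 neighbour site at the 79.3rd percentile, the Hoxa5 start at the 42.2nd and the Hoxc4 downstream site at the 40.7th. The Hoxa6 to Hoxa7 site and the Hoxb6 start, kept with WT-SOX9, were the strongest lost with ΔHMG-SOX9. In culture 4 sites held MLL3/4 in the no-DOX, ΔTA-SOX9 and ΔHMG-SOX9 lists and 0 in all 4 lists.

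The MYC tag of the transgenic protein had 0 to 3 peaks per list in the HOX clusters. It marked 5 genes without DOX, where no transgene should be made, 12.8% (interval 5.6 to 26.7), against 8.04%, through 2 peaks: the Hoxb6 start and the Hoxa5 start, each at 2024 RPKM (10 fragments, interval 969 to 3710). With WT-SOX9 it marked 0 of 39 genes, which allows up to 7.69%, against 14% of all genes. By length, 0 peaks allow up to 0.664 per 100 kb, above the 0.349 of all gene windows, so by this measure the list does not separate HOX windows from others. The tag gave no WT-SOX9 peak at the HOX sites that SOX9 marked in vivo. With ΔTA-SOX9 it marked 7 genes, 17.9% (8.98 to 32.7), against 17.9%, through 3 peaks, among them the Hoxb6 start at 3077 RPKM (15 fragments) and the Hoxa6 to Hoxa7 site at 3692 (18 fragments). With lists of equal size, or in the upper 50% by total signal, this count was 0 genes. With ΔHMG-SOX9, which cannot bind DNA through its HMG domain, it marked 3 genes, 7.69% (2.65 to 20.3), against 12.4%, through the Hoxa6 to Hoxa7 site at 2230 RPKM (9 fragments). Of the HOX MLL3/4 peaks lost with WT-SOX9, 0 of 10 had a MYC-tag peak of that group. This is no separate result, since the WT-SOX9 MYC-tag list had no peak in a HOX window. The 101 bases around the ΔTA-SOX9 maximum at the Hoxa6 to Hoxa7 site are shown, since this site had the tag with both mutant forms, and hold 5 TTGT cores in capitals.

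Hoxa6 to Hoxa7, chr6:52213376-52213476: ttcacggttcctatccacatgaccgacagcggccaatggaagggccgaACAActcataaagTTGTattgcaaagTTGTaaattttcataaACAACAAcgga

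Between systems before induction, 20 of 27 D0 peaks were not in the no-DOX culture list, 74.1% (interval 55.3 to 86.8), against 59.6% of all D0 peaks. The share was 9 of 14 in Hoxa, 6 of 7 in Hoxb and 5 of 6 in Hoxc. In the other direction, 5 of 12 no-DOX peaks were not in the D0 list, 41.7% (19.3 to 68), against 55.4%. By gene, 9 had a peak in both, 6 at D0 only (Hoxa4, Hoxb2, Hoxb3, Hoxb4, Hoxc5, Hoxc6) and 4 without DOX only (Hoxa10, Hoxb6, Hoxb7, Hoxb9). Sorting, age and growth in culture differ together between these groups and cannot be told apart.

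Genes whose proteins work with or on HOX genes were counted in the same way, beside the shares over all genes given above, which for MLL3/4 at D0 was 49.2% and for SOX9 at W1 27.3%. Of 9 TALE cofactors (PBX, MEIS and PKNOX proteins that bind DNA with HOX factors), 7 had MLL3/4 in each in vivo list and 6 in each culture list, and SOX9 marked 1 before DOX and 6, 7, 7 and 5 in the later lists. Meis1 held no SOX9 peak before DOX and between 3 and 6 in each later list. Of 13 regulators of HOX chromatin, among them Ezh2 and Cbx2 of the polycomb complexes and Kmt2a, 7 had MLL3/4 at D0, 10 at W1, 4 at W2, 7 without DOX and 2 with WT-SOX9. SOX9 marked 0, 4, 6, 2 and 0 of them at D0, W1, W2, W6 and W12. The shares over all genes for MLL3/4 were 40.5% at W1 and 39.3% at W2, so the count lay above the share at W1 (10 of 13), below it at W2 (4 of 13) and near it at D0. No interval was computed for these small counts, and no change between the lists was tested. The genes marked at W1 and not at D0 (Rnf2, Ezh2, Suz12 and Cbx7) had 1 peak each. Of 11 other homeobox genes outside the clusters, 0 had MLL3/4 at D0 and W1, 1 did at W2 (Gsx1), and 0 had SOX9 at any time.

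The clusters also hold RNA genes, and of 9 taken, MLL3/4 marked 2 at D0, 4 at W1, 3 at W2 and 3 without DOX. No share over other RNA genes was computed, so these counts are a description only. The microRNA genes Mir10a and Mir10b lie beside Hoxb4 and Hoxd4, and Mir196 genes beside Hoxa, Hoxb and Hoxc group 9 and 10 genes. The MLL3/4 count at Mir10a was 2 at D0, 1 at W1 and 0 at W2, with 1 SOX9 peak at W1, W2 and W6, and Mir10b in Hoxd had none in any list. Both share a seed, bases 2 to 8, in capitals in the RefSeq mature sequences below, as do both Mir196 products.

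miR-10a-5p: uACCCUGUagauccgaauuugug

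miR-10b-5p: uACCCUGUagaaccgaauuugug

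miR-196a-5p: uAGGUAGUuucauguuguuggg

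miR-196b-5p: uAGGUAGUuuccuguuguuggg

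So microRNAs of one seed lay in clusters with and without MLL3/4 peaks.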

How the data were processed

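CNR peak lists for SOX9, MLL3/4 and the MYC tag were used, 18 in all: 16 called on 2 pooled samples and 2 on replicate 1 alone; 9 of 41 samples (JUN, ARID1a and BRG1) were not analysed here. Trimming (Skewer), alignment to mm10 (Bowtie2 2.2.9) and duplicate removal (Picard) were done by the authors, who selected fragments up to 120 bp with SAMtools 1.3.1, combined replicates, made tracks with deepTools 3.1.2 and called peaks with SEACR (stringent, 0.01). SOX9 and MYC-tag peaks were kept by the authors above 1800. The deposited total signal of a peak is a score, the sum over its bases. The deposited maximum is in RPKM for SOX9, MYC-tag and replicate 1 lists, and unscaled coverage (signal) in the 7 pooled MLL3/4 lists, so those were ranked within a list only. Library depth is not given in the files, and fragments behind an RPKM value came from its smallest step, which implies 13.1 to 32.5 M fragments for SOX9 lists and 4.04 to 6.09 M for pooled MYC-tag lists; for the pooled MLL3/4 lists depth is unknown. Mitochondrial peaks were dropped, 3 in each culture MLL3/4 list and 4 in each replicate 1 list.

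Genes came from GENCODE vM21 and sequences from mm10 and RefSeq (GRCm38.p6); 22 of 39 HOX genes matched the RefSeq promoter table. Overlap meant at least 1 bp. A peak was lost where no peak of the later list overlapped it, and gained in the opposite case. Shares have 95% Wilson intervals, and a count of 0 is given with the limit of 3 counts. No test was made, since each group has 1 list. Alternatives changed the gene span, the overlap, the list size, the peaks within 500 bp and the SOX word. Named were all HOX genes with a SOX9 or MYC-tag peak that the uninduced list lacked, and the 3 strongest peaks of each MLL3/4 list and of each lost or gained class. The members and lists were chosen with earlier results of these data known. The overlap code was tested on 20000 simulated peaks with 0 wrong. Python 3.11.15, pandas 2.3.3, numpy 2.4.6, scipy 1.17.1, pysam 0.24.0 and matplotlib 3.10.9 were used. Some genes and sequences that these rules name are not reported here.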

Additional observations from a re-analysis of the deposited data

Results flagged for a closer look

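The no-DOX MLL3/4 list of replicate 1 alone, which entered no comparison above, held HOX peaks that the pooled no-DOX list lacked, of which 3 are given. The peak nearest Hoxd10 (chr2:74692371-74692480) reached 935.4 RPKM, from 8 fragments, and was the one peak in the Hoxd cluster in any list examined; no pooled list held it. The peaks nearest Hoxb3 (chr11:96341174-96341289, 701.5 RPKM, 6 fragments) and Hoxc6 (chr15:103005905-103006075, 467.7 RPKM, 4 fragments) were in no pooled list either. All 3 rest on few fragments, and why the pooled list lacked them was not tested.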

How the results depend on the processing

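No paired analysis was possible because the results come from no test: the replicates were pooled before peaks were called. Of 165 alternative values for 43 results, 98 stayed close and 67 moved. A count was called close within a set fold of the main value. A share was called close inside the Wilson interval of the main value, which is wide where peaks are few. HOX genes with a peak were, with the gene body alone, 5 for SOX9 W2, 5 for W6, 6, 2, 3 and 4 for MLL3/4 no DOX, WT-SOX9, ΔTA-SOX9 and ΔHMG-SOX9, and 3, 1 and 1 for MYC no DOX, ΔTA-SOX9 and ΔHMG-SOX9. Within 1 kb of the outermost gene start they were 1, 4, 4, 4 and 1 for SOX9 D0 to W12, 7, 6 and 5 for MLL3/4 D0 to W2, 5, 2, 4 and 3 in culture, and 2, 2 and 1 for MYC. With the upper 50% of each list they were 0, 1, 1 and 0 for SOX9 D0, W1, W6 and W12, 6 and 5 for MLL3/4 W1 and W2, 5, 0, 2 and 1 in culture, and 2 and 0 for MYC no DOX and ΔTA-SOX9. With lists of equal size they were 5 and 1 for SOX9 W1 and W6, 2, 0 and 1 for MLL3/4 no DOX, ΔTA-SOX9 and ΔHMG-SOX9, and 0 for MYC ΔTA-SOX9. Replicate 1 alone gave 8 for MYC no DOX. HOX peaks were 0, 1, 5, 1 and 0 for SOX9 D0 to W12 and 1 and 0 for MYC no DOX and ΔTA-SOX9 in the upper 50%, 4, 5, 1 and 0 for SOX9 W1, W2, W6 and MYC ΔTA-SOX9 at equal size, and 4 for MYC no DOX in replicate 1. In the upper 50%, 100% of no-DOX peaks were lost with WT-SOX9 and 100% with ΔTA-SOX9, 100% were gained with ΔTA-SOX9 and 80% were lost with ΔHMG-SOX9, of at most 5 peaks each. At equal size 100% were lost and 100% gained with WT-SOX9, of 3 and 2 peaks. Under both rules a peak cut from 1 list for its low rank counted as lost or gained. The SOX word share was 44.4%, 37.5% and 50% with 150 bp and 66.7%, 75% and 83.3% with TTGT alone. Shares of SOX9 peaks on D0 MLL3/4 and D0 against no DOX stayed close under every alternative run. The RefSeq spans, TTGT and the SOX9 peak alternatives were chosen after seeing the data. The cause of the moves was not tested, and the unknown depth of the pooled MLL3/4 lists limits their counts.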
